A study of Mus musculus with 36 samples.

Results

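T cell inhibitory receptors and the transcription regulator *Tox* were followed in tumour-infiltrating CD8+ T cells and, beside them, in tumour-associated macrophages (TAMs). They were chosen by name as 8 of the 24781 genes in the deposited count table: *Pdcd1*, *Ctla4*, *Havcr2*, *Lag3*, *Tigit*, *Cd160*, *Entpd1* and *Tox*. Each of the 8 had at least 1 molecule in the 36 libraries.

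Inhibitory receptors appear on T cells after antigen receptor signalling and restrain that signalling when they bind ligands on tumour cells, macrophages or other T cells. T cells that meet antigen for a long time, as in tumours, can carry several of these receptors together, a state called exhaustion in which the nuclear protein TOX has a central role. The ectoenzyme CD39, encoded by *Entpd1*, is found on such T cells and is also abundant on macrophages.

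Mice were inoculated intradermally with MC38, a mouse colon adenocarcinoma line, and on day 7 a sample of 100 CD8+ T cells (TCRβ+) or 100 TAMs (CD11b+ with high F4/80) was sorted from the tumour for each library. Digital RNA sequencing attaches a molecular barcode during reverse transcription from an oligo(dT) primer, and each barcode is counted once however often its molecule was amplified. For each cell type there were 6 libraries from placebo-treated WT mice, 6 from placebo-treated *muMt*-/- mice and 6 from *muMt*-/- mice that carried a slow-release pellet of γ-aminobutyric acid (GABA). The comparison of genotypes asks what the absence of B cells does to tumour T cells and macrophages, and the comparison of pellets asks what GABA does where B cells are absent.

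*muMt*-/- mice lack mature B cells from early development, keep their T cells and were on the C57BL/6J background, and WT mice were C57BL/6J or C57BL/6N. The placebo pellet is taken from the study's methods, since the sample labels give the treatment of these groups as none. No GABA-treated WT group was part of these libraries, so that the action of GABA could not be compared between genotypes. The study reports mice of both sexes, matched for age and sex between groups, and gives an age range in months for its mice as a whole. The age and sex of each single mouse were not given in the sources used here.

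The depth of CD8+ T cell libraries had a median of 42065.5 molecules in WT mice (range 22896 to 76898), of 67121.5 in *muMt*-/- mice on placebo (51064 to 77839) and of 80283 in those on GABA (65356 to 98015). TAM libraries were deeper, with medians of 242756 (206394 to 304100), 149960 (100254 to 253608) and 192775 (151856 to 262606) in the same order of groups. Of 6 comparisons of depth between groups (two-sided exact permutation tests), the lowest adjusted p was 0.0519, for GABA-treated *muMt*-/- against WT CD8+ T cell libraries, which held 1.86 times as many molecules. At this depth the 8 genes together gave 11 to 63 molecules in a WT CD8+ T cell library (median 36), 65 to 84 in a placebo-treated *muMt*-/- library (median 72) and 38 to 71 in a GABA-treated library (median 51.5).

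The cell type labels were checked against marker genes, with values as normalized numbers of molecules (counts divided by size factors computed over the 18 libraries of a cell type). All 10 T cell markers were detected in CD8+ T cell libraries, with *Thy1* the most abundant (58.6 on average, followed by *Cd8b1* at 38.2), and in each mouse group all 10 were higher there than in TAM libraries (edgeR). With size factors computed over all 36 libraries, for a common scale, the T cell marker sum of TAM libraries was 0.612%, 0.427% and 0.290% of the mean of all 18 CD8+ T cell libraries in WT, placebo-treated and GABA-treated *muMt*-/- mice. Between cell types 22.7%, 21.4% and 22% of all 8477 genes tested passed in WT, placebo-treated and GABA-treated *muMt*-/- mice. Of the 10 T cell markers only 1 averaged above 1 in TAM libraries. The others were tested because of their level in CD8+ T cells, so that their count is no test against this share. All 20 macrophage markers were higher in TAM libraries in each group, with *Apoe* the most abundant (400 on average). They were not absent from CD8+ T cell libraries, where all 20 had molecules, *Ctsb* and *Fcer1g* were the most abundant (19.6 and 10.5 on average), and the summed level was 3.31%, 12.1% and 11.5% of the mean of all 18 TAM libraries in the 3 groups (size factors over all 36). Without replicate 5 the share of WT libraries was 2.05%, and without replicate 1 that of placebo-treated *muMt*-/- libraries was 7.74%.

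The macrophage marker sum of CD8+ T cell libraries had a median of 24.8 in WT mice (range 11.3 to 115), of 90.3 in *muMt*-/- mice on placebo (60.9 to 414) and of 132 in those on GABA (21.9 to 255). Of the 20 macrophage markers, 17 passed the filter in CD8+ T cells. All 17 had estimates above 0 in both *muMt*-/- groups against WT mice, 14 of them at an unadjusted p under 0.05 in each comparison, with median log2 differences of 2.08 without and 2.18 with GABA. Over all 6663 genes tested, 62.3% without and 65.5% with GABA had estimates above 0, with medians of 0.15 and 0.21. An unadjusted p under 0.05 (edgeR) was reached by 6.17% and 6.89% of them. The sum was 3.7 times as high in placebo-treated *muMt*-/- as in WT mice (exact p = 0.0281 by permutation), 2.34 times without placebo-treated *muMt*-/- replicate 1 (exact p = 0.0541) and 6.04 times without WT replicate 5 (exact p = 0.013). Among 42 such tests of marker sums its adjusted p was 0.545, and 0 of the 42 passed. These values bear on each gene that TAMs express, such as *Entpd1* and *Havcr2*, and are set beside those genes.

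The T cell markers themselves had median log2 differences between mouse groups in CD8+ T cells of -0.02 without B cells, 0.10 with GABA against placebo and 0.14 with GABA against WT mice, and 0 of 10 passed in each. Of all 6663 genes tested, 0% passed in each as well. The T cell marker sum was 0.855 times that of WT mice in placebo-treated *muMt*-/- mice (exact permutation p = 0.355, adjusted p = 0.932). It was lowest in placebo-treated *muMt*-/- replicate 1 (117) and next in GABA-treated replicate 1 (138), the 2 libraries with the highest macrophage marker sums. The markers of further cell types were read in the CD8+ T cell libraries. The B cell markers *Cd79a*, *Ms4a1* and *Pax5* were at 0 and *Cd79b* averaged 0.199. Of the markers of CD4+ and regulatory T cells, *Cd40lg* averaged 0.819 and *Foxp3* 0.292. The NK cell markers *Ncr1* and *Klra8* were at 0, while *Klre1* averaged 2.38 and *Klrb1c* 0.347. Dendritic cell markers were led by *Zbtb46* at 0.138, followed by *Flt3* at 0.0770. Among 9 tumour and stroma markers *Krt8* and *Krt18* were at 0, but *Col3a1* and *Dcn* averaged 17.2 and 3.61, and the sum of the 9 reached 77.7 in 1 placebo-treated *muMt*-/- library.

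*Pdcd1* encodes PD-1, the receptor for PD-L1 and PD-L2 that recruits phosphatases to the antigen receptor. Its normalized number in the 6 CD8+ T cell libraries of a group (lowest, median, highest) was 2.40, 13.0 and 21.7 in WT mice, 5.06, 13.9 and 17.9 in placebo-treated *muMt*-/- mice, and 5.08, 8.95 and 15.0 in GABA-treated *muMt*-/- mice. The ranges overlapped throughout, and the range of WT mice (mean 12.5 ± 7.70, SD, n = 6) covered all libraries of both other groups. In bulk libraries, fewer cells with a transcript and less RNA per cell cannot be told apart, here and for each gene that follows.

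*Ctla4* encodes the receptor that competes with CD28 for CD80 and CD86. Its normalized number was 5.72, 9.77 and 17.7 (lowest, median, highest, n = 6) in WT mice, 1.01, 16.2 and 25.8 in placebo-treated *muMt*-/- mice, and 1.86, 9.68 and 14.8 in GABA-treated *muMt*-/- mice. In the placebo-treated *muMt*-/- group 5 of 6 libraries lay above the WT median and 1, replicate 1, lay below every WT library with 1 molecule. None of the 6 GABA-treated libraries reached the median of the placebo-treated *muMt*-/- group, of which 4 libraries lay above all GABA-treated ones.

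*Havcr2* encodes TIM-3, a receptor of T cells and myeloid cells. It had a normalized number of 2.40, 5.0 and 7.22 (lowest, median, highest, n = 6) in CD8+ T cells of WT mice, 5.72, 8.86 and 12.5 without B cells on placebo, and 3.18, 6.77 and 10.2 with GABA. All 6 placebo-treated *muMt*-/- libraries lay above the WT median and 4 lay above every WT library, while the GABA-treated libraries spread over both ranges.

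*Lag3* encodes a receptor for MHC class II, *Cd160* a receptor for the TNF receptor family protein HVEM, and *Tigit* a receptor that competes with CD226 for nectin-like ligands. *Lag3* reached 0, 0.376 and 4.81 (lowest, median, highest, n = 6) in WT mice, 0, 2.77 and 5.72 in placebo-treated *muMt*-/- mice and 0, 0.394 and 4.68 in GABA-treated *muMt*-/- mice, on 34 molecules in all. *Cd160* had 0, 3.19 and 6.63 in WT mice, 3.27, 4.25 and 7.49 in placebo-treated *muMt*-/- mice and 1.58, 2.82 and 5.47 with GABA. *Lag3* was at 0 in 3 of 6 WT, 1 of 6 placebo-treated and 3 of 6 GABA-treated *muMt*-/- libraries, and the *Cd160* level of all 6 placebo-treated *muMt*-/- libraries exceeded the WT median. *Tigit* was close to undetected, with 1 molecule in placebo-treated *muMt*-/- replicate 3 and 1 in GABA-treated *muMt*-/- replicate 5. In WT mice it had 0 of 262840 molecules, which allows up to 1.14 per 100000 (3 counts over the group).

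*Entpd1* had a normalized number of 3.67, 11.2 and 22.9 (lowest, median, highest, n = 6) in CD8+ T cells of WT mice, 6.66, 13.6 and 47.5 in *muMt*-/- mice on placebo, and 3.90, 7.84 and 11.9 in those on GABA. The value of 47.5 came from placebo-treated *muMt*-/- replicate 1, the same library that had 1 *Ctla4* molecule and the highest macrophage marker sum. Of the GABA-treated libraries, 0 of 6 reached the median of the placebo-treated *muMt*-/- group. *Tox* was sparse, with 7 molecules in WT, 3 in placebo-treated *muMt*-/- and 7 in GABA-treated *muMt*-/- CD8+ T cells, spread over 4, 3 and 3 libraries. Per 100000 molecules this was 2.66 (exact Poisson 95% interval 1.07 to 5.49), 0.743 (0.153 to 2.17) and 1.43 (0.576 to 2.95), and the intervals overlapped.

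**Figure D1:**
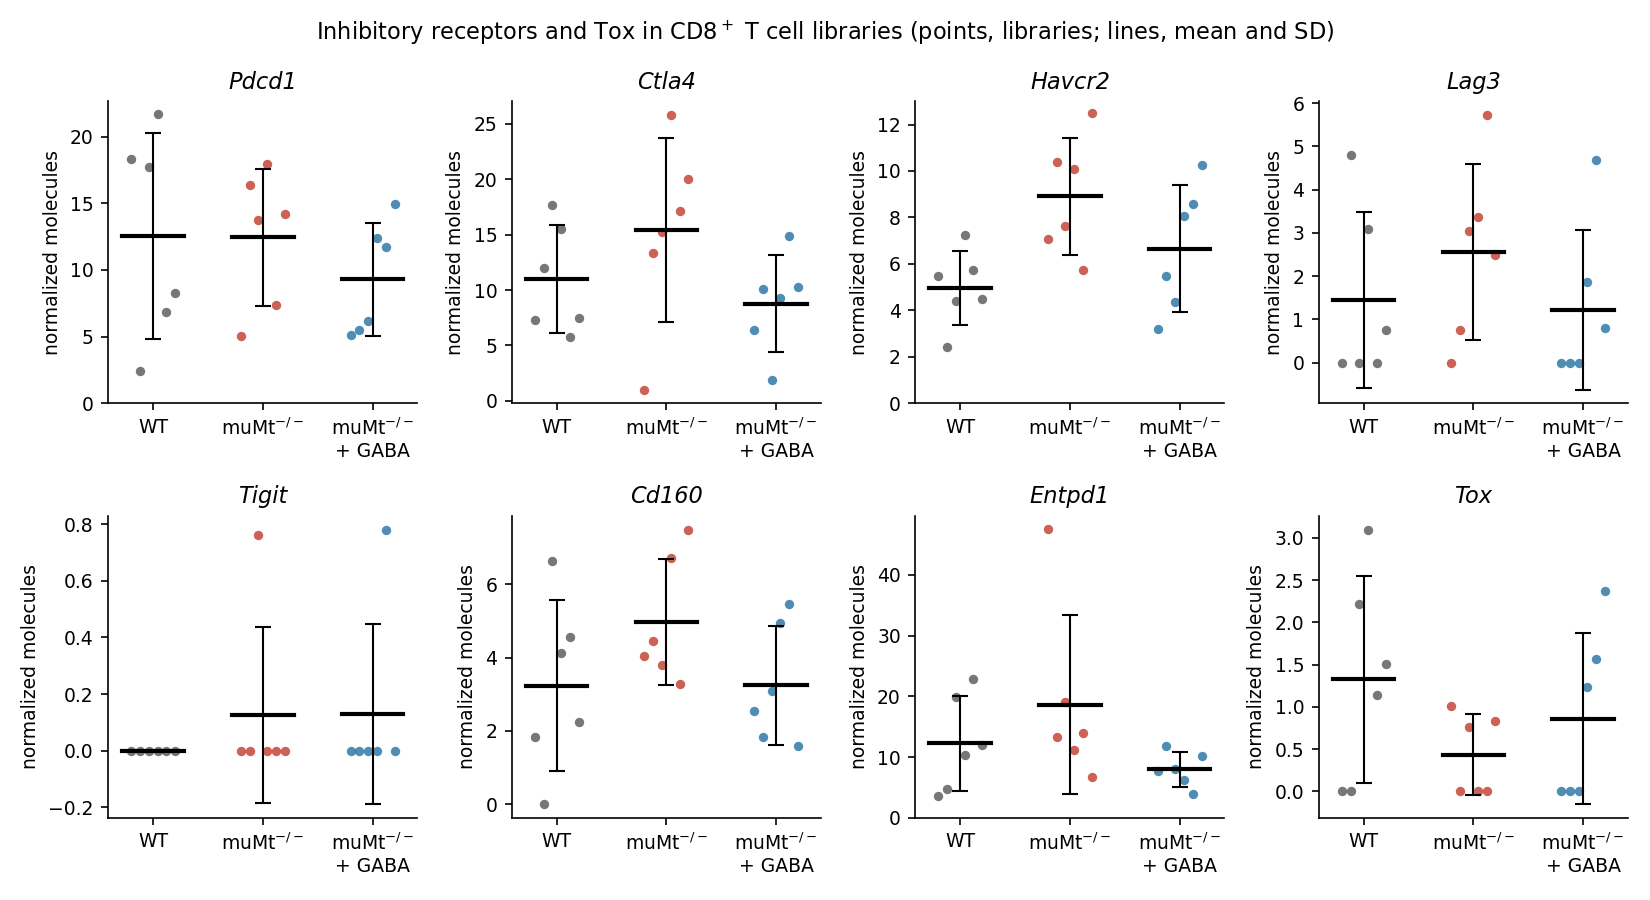
Normalized number of molecules of the 8 genes in the 6 CD8+ T cell libraries of each group (points), with the group mean (wide line) and SD (bars). Groups overlapped for every gene, and 1 library of placebo-treated *muMt*-/- mice had the highest *Entpd1* value, 47.5.

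Without B cells, the CD8+ T cell estimates of all 6 genes tested were above 0 on the log2 scale, by 0.87 for *Havcr2* (95% confidence interval 0.11 to 1.62), 1.0 for *Lag3* (-0.69 to 2.70), 0.67 for *Ctla4* (-0.17 to 1.5), 0.66 for *Cd160* (-0.28 to 1.60), 0.61 for *Entpd1* (-0.14 to 1.36) and 0.10 for *Pdcd1* (-0.66 to 0.86), the last of which was -0.01 with size factors of DESeq2 in place of TMM and below 0 without WT replicates 2, 5 or 6 or placebo-treated *muMt*-/- replicates 2 or 4. The median over the 6 genes was 0.67, where that over all 6663 genes tested was 0.15 and 62.3% of these had estimates above 0. No gene of the 6 passed the test, and neither did any other gene.

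The test was the quasi-likelihood test of edgeR with Benjamini-Hochberg adjustment over all genes with a mean normalized number above 1, a filter that *Tigit* and *Tox* did not pass in CD8+ T cells. In this comparison, 0 of 6 genes and 0% of the 6663 genes tested had an adjusted p under 0.05, DESeq2 also called 0 genes, and at an unadjusted p under 0.05 edgeR counted 1 of the 6, *Havcr2*, and 411 of all genes. Adjusted p-values (edgeR) ran from 0.713 for *Havcr2* to 0.998 for *Pdcd1*. Without WT replicate 5, the WT library with the highest macrophage marker sum, 13 genes passed, of which 0 were among the 6. Without placebo-treated *muMt*-/- replicate 1 the *Entpd1* estimate was 0.16, and without WT replicate 4 that of *Lag3* was 1.60.

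With GABA, the CD8+ T cell estimates of the same 6 genes against placebo-treated *muMt*-/- mice were all below 0. The difference was -1.13 for *Entpd1* (-1.86 to -0.40), -0.99 for *Lag3* (-2.48 to 0.50), -0.78 for *Ctla4* (-1.56 to -0.00), -0.51 for *Cd160* (-1.33 to 0.32), -0.37 for *Havcr2* (-1.02 to 0.28) and -0.36 for *Pdcd1* (-1.08 to 0.36). Their median was -0.64, beside 0.03 over all genes tested, of which 53.5% had estimates above 0. These directions held under both scalings, and the *Lag3* estimate was -1.98 without GABA-treated replicate 5. In the same comparison the stroma markers *Dcn* and *Col3a1* had log2 differences of -2.51 (-3.95 to -1.06, unadjusted p = 0.00117) and -1.27 (-2.47 to -0.07, unadjusted p = 0.0381), while the third of the list that was tested, *Col1a2*, had 0.70 (-0.90 to 2.29), with adjusted p 0.999 for all 3 (edgeR), and the summed level of 9 tumour and stroma markers was 0.414 times that with placebo (exact permutation p = 0.147, adjusted p = 0.932).

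Here too 0 of 6 genes and 0% of 6663 genes had an adjusted p under 0.05 with edgeR, and 0 genes with DESeq2. At an unadjusted p under 0.05 edgeR counted 2 of the 6 genes, *Entpd1* and *Ctla4*, and 247 of all genes. The adjusted p was 0.999 for each of the 6. The comparison shares its 6 placebo-treated *muMt*-/- libraries with the comparison against WT mice, so that a chance deviation of these libraries enters both with opposite sign. Without placebo-treated *muMt*-/- replicate 1 the *Entpd1* estimate was -0.68, and 1 gene was called without WT replicate 6, placebo-treated *muMt*-/- replicate 6 or GABA-treated replicate 2.

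Between GABA-treated *muMt*-/- and WT CD8+ T cells 3 estimates were above 0 and 3 below. They were 0.49 for *Havcr2* (-0.27 to 1.26), 0.16 for *Cd160*, 0.01 for *Lag3* (-1.99 to 2.02), -0.12 for *Ctla4*, -0.26 for *Pdcd1* and -0.52 for *Entpd1* (-1.32 to 0.28), and those of *Cd160*, *Lag3*, *Ctla4* and *Pdcd1* changed sign in at least 1 alternative setting. The libraries whose omission did so were WT replicates 1, 2 or 6 and GABA-treated replicates 4 or 5 for *Cd160*, WT replicate 4 and GABA-treated replicate 3 for *Ctla4*, WT replicate 4 for *Pdcd1*, and 9 libraries for *Lag3* (WT replicates 1, 3, 5 and 6, placebo-treated *muMt*-/- replicates 2, 3 and 4, GABA-treated replicates 4 and 5). Without GABA-treated replicate 5 *Lag3* was at -0.97, and without WT replicate 4 at 0.61. The median over the 6 was -0.05, beside 0.21 over all genes tested, which was 0.06 with size factors of DESeq2, so that every estimate of this comparison carries a shift between the scalings. With edgeR 0 of 6 genes and 0% of 6663 genes passed, 0 of the 6 and 459 of all genes had an unadjusted p under 0.05, and DESeq2 called 1 gene. The libraries are shared with the preceding comparisons. Without placebo-treated *muMt*-/- replicate 1 there were 2 genes called, and without WT replicate 6, placebo-treated *muMt*-/- replicate 3 or GABA-treated replicate 1 there was 1.

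**Figure D2:**
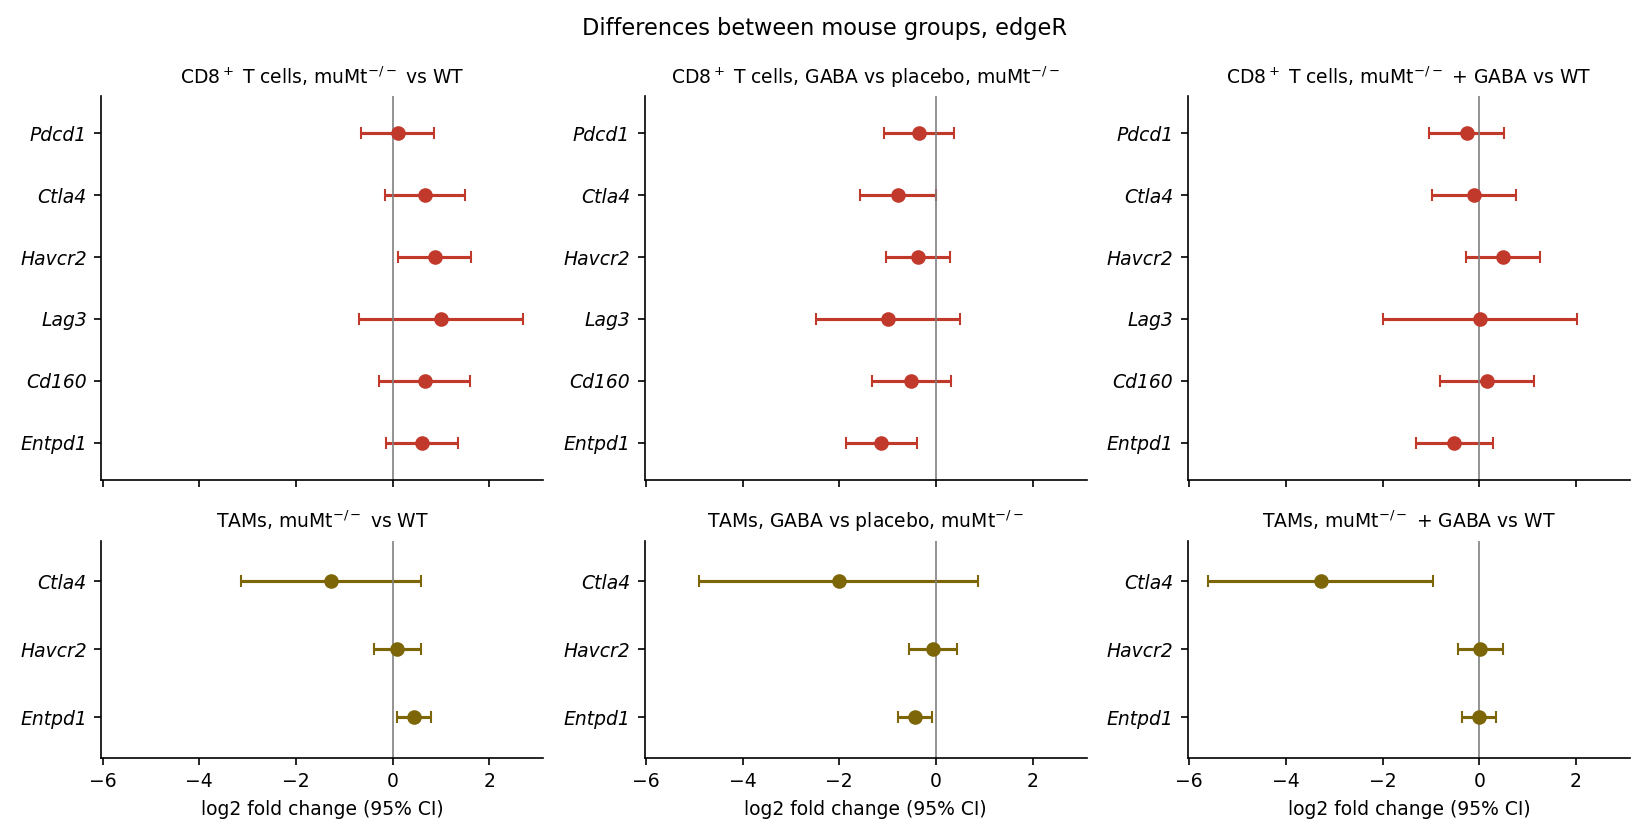
Log2 fold changes with 95% confidence intervals (edgeR) for the genes that passed the filter, 6 in CD8+ T cells (top) and 3 in TAMs (bottom), in the 3 comparisons of mouse groups. In CD8+ T cells the intervals of *Havcr2* without B cells and of *Entpd1* and *Ctla4* with GABA did not include 0, and no gene passed after adjustment over all genes.

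The macrophage marker sum was set against 3 of the genes across the 18 CD8+ T cell libraries. By Pearson's r the relation of *Entpd1* was positive and that of *Ctla4* negative, while the rank correlations did not pass. For *Entpd1* Pearson's r with the macrophage marker sum was 0.659 (permutation p = 0.0168, adjusted p = 0.0252 over 3 relations) and Spearman's rho 0.455 (permutation p = 0.0589, adjusted p = 0.177). For *Ctla4* r was -0.564 (permutation p = 0.0147, adjusted p = 0.0252) and rho -0.379 (permutation p = 0.123, adjusted p = 0.184). For *Havcr2* r was -0.159 (permutation p = 0.535, adjusted p = 0.535) and rho -0.0877 (permutation p = 0.731, adjusted p = 0.731).

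The 2 libraries farthest from the median marker sum were replicate 1 of placebo-treated and replicate 1 of GABA-treated *muMt*-/- mice. When they were left out r was 0.269 for *Entpd1*, -0.340 for *Ctla4* and -0.0849 for *Havcr2*, and rho was 0.444, -0.132 and 0.05. On the log2 scale, where the 2 farthest were placebo-treated *muMt*-/- replicate 1 and WT replicate 4, r without them was 0.484 for *Entpd1* and -0.329 for *Ctla4*. Within WT, placebo-treated and GABA-treated *muMt*-/- libraries r was 0.776, 0.963 and 0.431 for *Entpd1* and -0.550, -0.858 and -0.827 for *Ctla4*, and it was 0.145, -0.551 and -0.808 for *Havcr2*. With the log2 macrophage marker sum as a covariate, the difference between placebo-treated *muMt*-/- and WT mice was -0.30 for *Entpd1*, 1.59 for *Ctla4*, 1.35 for *Havcr2*, 1.11 for *Cd160*, 0.91 for *Pdcd1* and 3.09 for *Lag3*, and 0 of the 6 passed. With GABA against placebo it was -1.0 for *Entpd1*, -0.93 for *Ctla4* and -1.69 for *Lag3*. Over the alternatives other than leaving out each library, this covariate among them, *Cd160* ran from -0.58 to -0.50 in that comparison. *Havcr2* ran from -0.45 to -0.36 and *Pdcd1* from -0.47 to -0.33. With GABA against WT mice the difference with this covariate was -1.29 for *Entpd1* (adjusted p = 0.146 with edgeR, and 0.146 to 1.0 over the alternatives), 0.66 for *Ctla4*, 0.90 for *Havcr2*, 0.53 for *Cd160*, 0.44 for *Pdcd1* and 1.40 for *Lag3*, and 0 of the 6 passed in either. What part macrophage RNA had in the levels of these genes was not tested beyond these values.

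**Figure D3:**
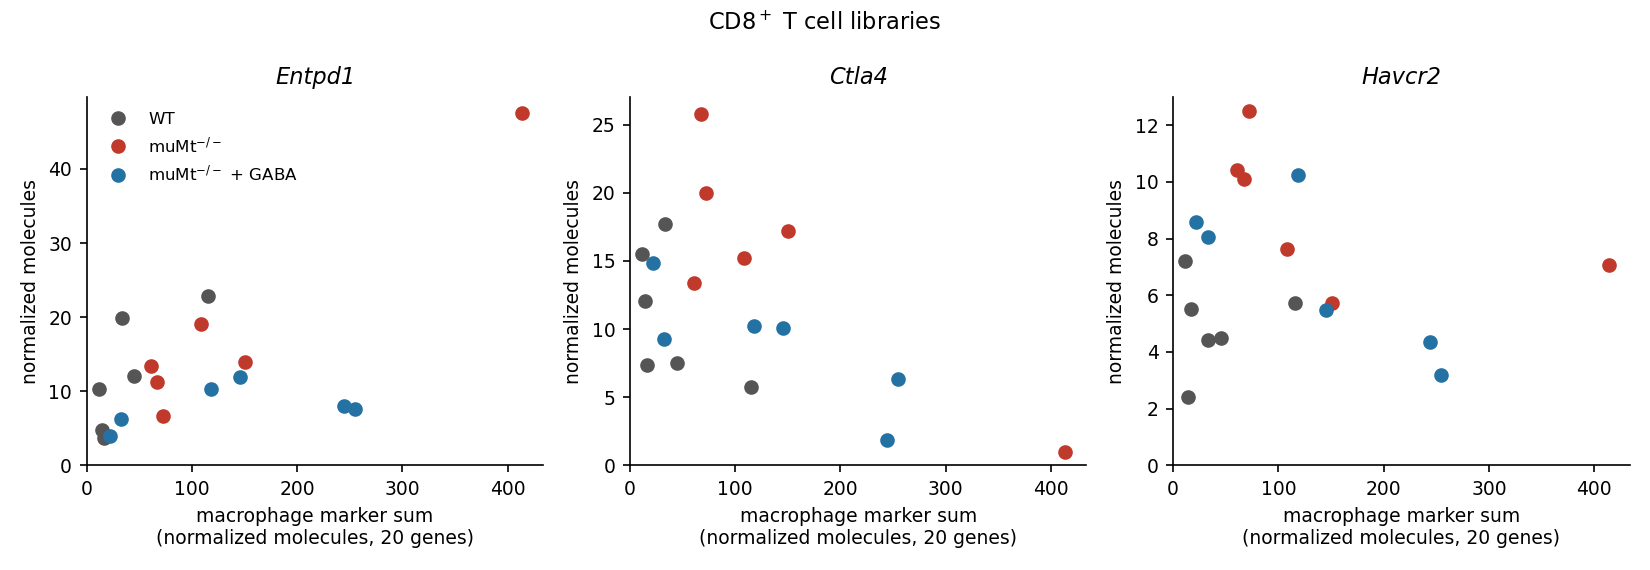
Normalized numbers of *Entpd1*, *Ctla4* and *Havcr2* against the summed normalized number of 20 macrophage markers in the 18 CD8+ T cell libraries. The library farthest to the right, replicate 1 of placebo-treated *muMt*-/- mice, had a marker sum of 414, the highest *Entpd1* value and the lowest *Ctla4* value.

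In TAMs the 8 genes fell into those with many molecules and those at or near 0. *Entpd1* had 104, 125 and 145 normalized molecules (lowest, median, highest, n = 6) in WT mice, 107, 161 and 242 in placebo-treated *muMt*-/- mice and 85.0, 127 and 152 in GABA-treated *muMt*-/- mice. *Havcr2* had 15.3, 17.4 and 19.6 in WT mice, 11.2, 18.8 and 28.0 in placebo-treated and 6.64, 19.4 and 23.8 in GABA-treated *muMt*-/- mice. For *Entpd1*, 5 of 6 placebo-treated *muMt*-/- libraries lay above the WT median and 3 above every WT library, while *Havcr2* differed between groups mainly in the wider spread of both *muMt*-/- groups.

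*Ctla4* had 26 molecules in all TAM libraries, of which 12 were in WT replicate 4, 7 in WT replicate 3 and 4 in placebo-treated *muMt*-/- replicate 4. The other 15 TAM libraries had 0 or 1. WT replicates 3 and 4 also held 10 and 9 molecules of the 10 T cell markers and 2 molecules each of *Cd4* and *Foxp3* together, where the remaining TAM libraries held 0 to 10 and 0 to 1, and *Icos* had 1, 4 and 3 molecules in WT replicates 3, 4 and 5, 4 in placebo-treated *muMt*-/- replicate 4, and 2 and 1 in GABA-treated replicates 1 and 6. The part of T cell RNA in the *Ctla4* molecules of TAM libraries was not tested. *Pdcd1* and *Tox* had 3 molecules each, *Lag3* and *Cd160* 1 each, and *Tigit* 0 in the 18 TAM libraries.

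Between placebo-treated *muMt*-/- and WT TAMs the log2 difference was 0.43 for *Entpd1* (0.08 to 0.79, adjusted p = 0.218 with edgeR), 0.09 for *Havcr2* (-0.39 to 0.57, with the sign changed when placebo-treated *muMt*-/- replicate 6 was left out) and -1.27 for *Ctla4* (-3.13 to 0.59), which was -2.96 without placebo-treated *muMt*-/- replicate 4 and was not tested without WT replicate 4. With edgeR 0 of these 3 genes passed, where 2.05% of the 9469 genes tested did, 97 in each direction. The unadjusted p was under 0.05 for 1 of the 3, *Entpd1*, and for 1408 of all genes, and DESeq2 called 253 genes, again 0 of the 3. Without WT replicate 1, WT replicate 6 or placebo-treated *muMt*-/- replicate 4 the number of genes called was 87, 125 and 67, and without GABA-treated replicate 1 it was 338. With log2 total molecules as a covariate it was 11.

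With GABA the *Entpd1* difference in TAMs was -0.44 against placebo-treated *muMt*-/- mice (-0.80 to -0.08, adjusted p = 0.449 with edgeR) and -0.01 against WT mice (-0.36 to 0.35). *Havcr2* had -0.07 (-0.56 to 0.43) and 0.02 (-0.44 to 0.49), values that changed sign without placebo-treated *muMt*-/- replicates 1 or 6 or GABA-treated replicates 1 or 3, and without WT replicates 1 or 4 or GABA-treated replicates 2, 4 or 6. The *Entpd1* difference against WT mice did so without WT replicates 2, 5 or 6 or GABA-treated replicates 1 or 2. *Ctla4* had -2.01 (-4.90 to 0.88) and -3.28 (-5.61 to -0.96, adjusted p = 0.49), the latter on 1 molecule with GABA against 20 in WT mice. The first was -0.33 without placebo-treated *muMt*-/- replicate 4 and -3.27 without GABA-treated replicate 1, and the second -4.54 without the latter. Against placebo 0 of 3 genes and 0.0211% of 9469 genes passed with edgeR, with 1 of the 3 and 801 of all genes at an unadjusted p under 0.05 and 60 genes called by DESeq2. Against WT mice 0 of 3 genes and 0.0739% of 9469 genes passed, with 1 of the 3 and 665 of all genes at an unadjusted p under 0.05 and 14 genes called by DESeq2. These comparisons share libraries with each other as in CD8+ T cells, and their counts moved with single libraries. Against placebo the 2 genes called became 36 or 5 without GABA-treated replicates 1 or 2, 5 or 12 without placebo-treated *muMt*-/- replicates 2 or 5, and 6 without WT replicate 1. Against WT mice the 7 genes became 2 to 4 without WT replicates 1, 2, 3, 4 or 6, placebo-treated *muMt*-/- replicates 1 or 2, or GABA-treated replicates 1, 2 or 3.

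Between cell types, *Pdcd1*, *Ctla4*, *Cd160* and *Lag3* were higher in CD8+ T cells than in TAMs in each of the 3 mouse groups, *Entpd1* was lower, and *Havcr2* did not pass the test in any group. *Pdcd1* had 57 molecules in WT CD8+ T cells and 2 in WT TAMs, a ratio scaled by the size factors over all 36 libraries of 142 (95% counting interval 37.5 to 1199), and with GABA the ratio was 170 (29.6 to 6795). In placebo-treated *muMt*-/- mice it had 87 molecules against 0, at least 59.1-fold higher in CD8+ T cells (against 3 counts over the group, with a 95% lower counting limit of 47.0). *Ctla4* was 11.7 times as high in CD8+ T cells of WT mice (6.79 to 20.8), 43.6 times in placebo-treated *muMt*-/- mice (18.1 to 137) and 155 times with GABA (26.9 to 6193). These intervals cover counting error alone, and the ratios moved with single TAM libraries. *Ctla4* was 24.1 times as high without WT replicate 4, 187 times without placebo-treated *muMt*-/- replicate 4 and at least 45.4-fold higher without GABA-treated replicate 1. *Pdcd1* was 237 and 235 times as high without WT replicates 3 and 6, and at least 46.0-fold higher without GABA-treated replicate 6.

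*Cd160* was 74.6 times as high in WT CD8+ T cells (11.5 to 3142), at least 23.1-fold higher in placebo-treated and at least 20.3-fold higher in GABA-treated *muMt*-/- mice. *Lag3* was at least 9.95-fold higher in WT mice, 36.7 times as high (5.79 to 1527) in placebo-treated and at least 7.26-fold higher in GABA-treated *muMt*-/- mice. Each bound is against 3 counts over the TAM group, and the 95% lower counting limits were 17.8 and 15.5 for *Cd160* and 5.86 and 4.88 for *Lag3*. Without TAM WT replicate 3 *Cd160* was at least 20.8-fold higher, and *Lag3* was at least 9.61-fold higher without TAM placebo-treated *muMt*-/- replicate 3 and at least 3.42-fold higher without CD8+ T cell GABA-treated replicate 5. Without CD8+ T cell WT replicate 4 it had 3 molecules against 0 in WT mice, for which no fold is given. *Entpd1* had a ratio of 0.297 (0.224 to 0.386), 0.296 (0.243 to 0.357) and 0.179 (0.137 to 0.231) in the 3 groups, lower in CD8+ T cells, and *Havcr2* one of 0.872 (0.540 to 1.35), 1.34 (0.959 to 1.87) and 1.04 (0.741 to 1.45). *Tox* did not pass the filter on low numbers over the 36 libraries. It was at least 11.6-fold higher in CD8+ T cells of WT mice, where it passed in the 2 alternatives that tested it, with a 95% lower counting limit of 7.17, and had ratios of 6.11 (0.491 to 321) and 7.62 (1.45 to 75.2) in placebo-treated and GABA-treated *muMt*-/- mice, the latter 13.4 and 12 without TAM GABA-treated replicates 1 and 2. For *Tigit*, at 0 to 1 molecule in every group, no ratio is given.

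With edgeR, 5 of the 6 genes tested passed in each group, 4 higher and 1 lower, where 22.7% of 8477 genes passed in WT mice (508 higher and 1420 lower), 21.4% in placebo-treated *muMt*-/- mice (654 and 1156) and 22% in GABA-treated *muMt*-/- mice (672 and 1197). Of the 4 higher genes, *Pdcd1*, *Lag3* and *Cd160* averaged 0.130, 0.0512 and 0.0438 in TAM libraries. These passed the filter on low numbers only through CD8+ T cell libraries, which fixed much of their direction. The count is therefore no test against the share of all genes. Adjusted p-values (edgeR) were 7.19e-06, 1.82e-09 and 1.02e-08 for *Ctla4* and 1.38e-06, 1.68e-06 and 5.08e-09 for *Entpd1*. Those of *Pdcd1* (1.97e-12, 1.42e-12 and 5.49e-12) and *Lag3* (0.0045, 5e-04 and 0.00257) carry the limit of the filter and are given as a description. The median fitted log2 difference of the 6 genes was 3.86, 4.80 and 5.15, beside -0.36, -0.10 and -0.12 over all genes tested. These medians include *Pdcd1*, *Lag3* and *Cd160*, with fitted values over TAM groups at 0 molecules. For the same reason of the filter, their gap from all genes is a description and no test. From the ratios of molecules, with genes at 0 in TAMs set to their bound, the median was 3.43, 4.86 and 3.60. The 4 genes that were higher are well-known genes of T cells, and their direction describes the sort. Leaving out any 1 of the 36 libraries left 5 genes called in each group.

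**Figure D4:**
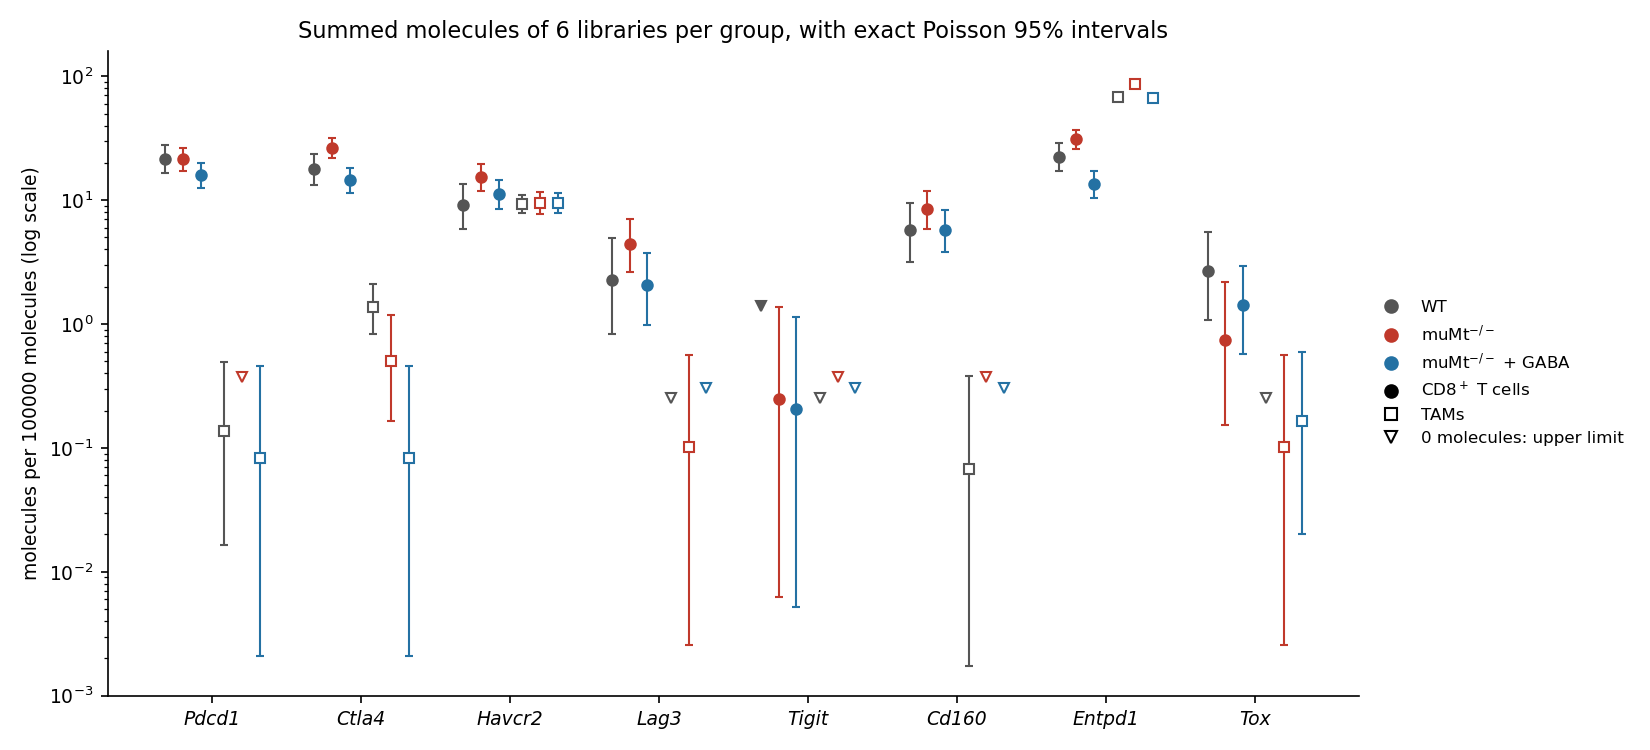
Summed molecules of each gene per 100000 molecules in the 6 libraries of a group (log scale), with exact Poisson 95% intervals, for CD8+ T cells (filled circles) and TAMs (open squares), with triangles at the upper limit for groups with 0 molecules. The intervals cover counting error alone and leave out the spread between libraries. *Entpd1* in TAMs of placebo-treated *muMt*-/- against WT mice had an adjusted p of 0.218 (edgeR), though these 2 intervals lie apart. *Entpd1* lay between 66.3 and 87.2 in TAMs and between 13.5 and 31.0 in CD8+ T cells, and *Havcr2* lay between 9.13 and 15.4 in all 6 groups.

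Whether the differences between mouse groups differed between the cell types was tested with the interaction terms. For the absence of B cells, the CD8+ T cell difference minus the TAM difference was 0.20 for *Entpd1* (-0.63 to 1.04), 0.79 for *Havcr2* (-0.10 to 1.69) and 1.93 for *Ctla4* (-0.10 to 3.97). For GABA it was -0.69 for *Entpd1* (-1.51 to 0.14), -0.29 for *Havcr2* (-1.10 to 0.51) and 1.03 for *Ctla4* (-1.32 to 3.38). Again with a TAM group at 0 molecules, it was -1.30 for *Pdcd1* (-3.82 to 1.23) and 0.08 for *Lag3*. Each rested on 1 TAM molecule in 1 group against 0 in the other. *Cd160* had 0 molecules in both TAM groups, so that its term for GABA cannot be estimated (fitted -0.50, standard error 793). For the absence of B cells the fitted values were 1.44 for *Pdcd1*, 1.497 for *Cd160* and -0.05 for *Lag3*. Their TAM molecules in WT against placebo-treated *muMt*-/- mice were 2 against 0, 1 against 0 and 0 against 1. With edgeR 0 of 6 genes passed in either, 0.0118% of 8477 genes (1 gene) passed in the first and 0% in the second, and DESeq2 called 9 and 0 genes. For *Cd160* the second is no test, since it could not pass there. For *Pdcd1* and *Lag3* in both, and *Cd160* in the first, the result rests on the few TAM molecules given. *Entpd1* changed sign in the first without CD8+ T cell placebo-treated *muMt*-/- replicate 1, and *Ctla4* in the second without TAM placebo-treated *muMt*-/- replicate 4 (-0.49). *Lag3* changed sign without any of 6 single libraries in the first and 5 in the second. Without single libraries *Cd160* ran from 0.70 to 1.67 in the first, and *Pdcd1* from -1.50 to -0.36 in the second. *Ctla4* was also at 0.98 and 3.46 in the first without TAM WT replicate 4 and TAM placebo-treated *muMt*-/- replicate 4, and at 1.93 in the second without TAM GABA-treated replicate 1. The 1 gene called in the first became 9 without CD8+ T cell WT replicate 5, 7 without TAM GABA-treated replicate 1, 3 or 4 without CD8+ T cell placebo-treated *muMt*-/- replicates 2 or 6, and 0 without CD8+ T cell WT replicates 4 or 6, CD8+ T cell placebo-treated *muMt*-/- replicate 1 or TAM placebo-treated *muMt*-/- replicate 5. In the second, 2 genes were called without CD8+ T cell GABA-treated replicate 1 and 1 without CD8+ T cell placebo-treated *muMt*-/- replicate 6. At an unadjusted p under 0.05 there were 0 of the 6 genes in both, with the same limits for *Cd160*, *Pdcd1* and *Lag3*, beside 853 and 384 of all genes.

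Genes that work with these receptors were read from fixed lists. Of 10 other inhibitory receptors in the table (*Pvrig* was not in it), 7 were tested in CD8+ T cells and 0 passed in any comparison of mouse groups. Beside this and the CD8+ T cell counts of the lists that follow, 0% of all 6663 genes tested passed. *Klrc1*, which encodes the NKG2A receptor, was the most abundant (33.6 on average) and *Lilrb4a* the next (10.2). Without B cells 6 of the 7 estimates were above 0 (median 0.33), with GABA against placebo 7 of 7 were below 0 (median -0.22), and with GABA against WT mice 4 were above 0 (median 0.09). With GABA against placebo, *Cd5* and *Vsir* were close to 0 (-0.002 and -0.006). The medians over all genes tested were 0.15, 0.03 and 0.21, and 62.3%, 53.5% and 65.5% of these genes had estimates above 0. The first 2 comparisons share the placebo-treated *muMt*-/- libraries, which enter them with opposite sign. The 3 highest estimates without B cells were those of *Lair1* (1.02), *Lilrb4a* (0.58) and *Vsir* (0.56), which averaged 69.2, 90.2 and 32.7 in TAM and 3.4, 10.2 and 6.54 in CD8+ T cell libraries. The macrophage markers had a median of 2.08 in that comparison, and the part of macrophage RNA in these estimates was not tested.

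Of 16 ligands and partners, 10 were tested in CD8+ T cells, where *Hmgb1* (30.7) and the MHC class II gene *H2-Aa* (23.6) were the most abundant and 0 passed. *H2-Aa*, whose product is a ligand of LAG-3, averaged 8.51 ± 14.0 (SD, n = 6) in WT, 36.2 ± 25.4 in placebo-treated and 25.9 ± 25.4 in GABA-treated *muMt*-/- libraries. Its log2 difference without B cells was 2.07 (adjusted p = 0.36 with edgeR), beside the median of 2.08 for macrophage markers, and it averaged 437 in TAM libraries. What part macrophage RNA had in its level was not tested. The medians of the 10 genes in the 3 comparisons were 0.38, -0.32 and 0.45. In TAMs 13 were tested, and 2 rose in placebo-treated *muMt*-/- mice against WT mice, both ligands of PD-1, where 2.05% of all 9469 genes passed (97 in each direction). *Cd274*, encoding PD-L1, rose by 0.84 on the log2 scale (0.51 to 1.17, adjusted p = 0.00349 with edgeR) and *Pdcd1lg2*, encoding PD-L2, by 1.83 (0.96 to 2.70, adjusted p = 0.0155). Both lost the call with log2 total molecules as a covariate (adjusted p up to 0.0855 and 0.157 over the alternatives), and *Pdcd1lg2* also with DESeq2 and without placebo-treated *muMt*-/- replicate 4.

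The 3 costimulatory receptors were *Cd28* and *Cd226*, whose products share ligands with CTLA-4 and TIGIT, and *Icos*, a relative of *Cd28*. *Icos* (24.7) and *Cd28* (14.9) were the most abundant in CD8+ T cells. Their median differences were 0.14, -0.15 and 0.23 and 0 of 3 passed. Of 17 transcription factors of T cell activation and exhaustion, 15 were tested in CD8+ T cells, where *Id2* (35.7) and *Bhlhe40* (17.0) were the most abundant, medians were 0.09, -0.02 and 0.27, and 0 passed. In TAMs 2 of 13 rose without B cells, beside the 2.05% of all genes, *Bhlhe40* by 1.19 (adjusted p = 0.00597 with edgeR), called in each of 26 alternative settings, and *Nr4a2* by 1.13 (adjusted p = 0.0286), called in 18 of 26. The 6 signalling proteins, led by the phosphatase gene *Ptpn6* (10.9) and the ubiquitin ligase gene *Cblb* (8.51), had medians of 0.09, 0.25 and 0.18 in CD8+ T cells, with 0 passing.

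Of the macrophage markers 1 of 20 was higher and 3 were lower in TAMs of placebo-treated *muMt*-/- against WT mice, again beside 2.05% of all genes (97 in each direction). *Itgam* had a log2 difference of 0.66 (adjusted p = 0.0277 with edgeR), *Lyz2* one of -0.74 (adjusted p = 0.024), *C1qb* one of -0.62 (adjusted p = 0.0414) and *C1qc* one of -0.57 (adjusted p = 0.0483), called in 18, 21, 13 and 12 of 26 alternative settings. None of the listed genes passed in the other 2 comparisons of TAM groups.

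Between cell types, 4 of 8 other inhibitory receptors tested were higher in CD8+ T cells in each group, and 3, 2 and 2 were lower in WT, placebo-treated and GABA-treated *muMt*-/- mice. Beside these and the counts of lists that follow, 22.7%, 21.4% and 22% of all 8477 genes passed, with more lower than higher. Listed genes near 0 in TAMs, such as *Klrc1*, *Cd5*, *Cd96* and *Tbx21*, passed the filter on low numbers only through CD8+ T cell libraries. This fixed much of their direction, so that the counts of the lists are a description and no test against the share of all genes. Genes with 3 or fewer TAM molecules in a group are given as summed molecules, CD8+ T cells against TAMs in WT, placebo-treated and GABA-treated *muMt*-/- mice, and TAM libraries were the deeper ones. *Klrc1* had 170 against 1, 249 against 0 and 229 against 3, *Cd5* 34 against 1, 34 against 0 and 40 against 0, and *Cd96* 14 against 1, 21 against 0 and 18 against 0. *Lair1*, a collagen receptor of many leukocytes, was lower in CD8+ T cells by fitted values of -3.33, -2.30 and -3.11, and *Btla*, another receptor for HVEM, was higher in each group (5 against 1, 9 against 2 and 9 against 0). Its call was lost in WT mice without CD8+ T cell WT replicate 6, and in placebo-treated *muMt*-/- mice with the replicate number as a block or without TAM placebo-treated *muMt*-/- replicate 5. Of 10 ligands tested, 6 were lower in CD8+ T cells in each group and 1, 0 and 0 were higher. *H2-Aa* had log2 differences of -4.13, -2.17 and -2.54, *H2-Ab1* -3.92, -2.03 and -2.68, *Lgals3* -2.87, -1.48 and -1.82, *Cd86* -2.70, -1.48 and -1.88, and *Cd274* -1.56, -1.76 and -1.77.

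All 3 costimulatory receptors were higher in CD8+ T cells, with 109 against 8, 174 against 4 and 211 against 3 molecules of *Icos*, 73 against 9, 98 against 0 and 101 against 1 of *Cd28*, and 14 against 0, 34 against 0 and 28 against 2 of *Cd226*. Of 15 transcription factors tested, 11, 10 and 11 were higher and 2, 1 and 1 lower. *Nr4a3* had log2 differences of 5.53, 3.52 and 3.93 and *Tcf7* of 3.79, 3.4 and 4.54. *Tbx21* had 17 against 0, 15 against 0 and 28 against 0 molecules, *Eomes* 13 against 2, 16 against 1 and 21 against 3, and *Irf4* 26 against 5, 32 against 3 and 22 against 4. Of 5 signalling proteins tested 1 was higher and 2 were lower in each group: *Cblb* had log2 differences of 2.47, 2.04 and 2.28, *Inpp5d* -1.37, -0.81 and -1.12, and *Ptpn6* -1.20, -0.79 and -0.95. The call of *Inpp5d* in placebo-treated *muMt*-/- mice held in 25 of 43 alternative settings, and that of *Ptpn6* in 42, all but the one without TAM replicate 3 of that group. The NK cell marker *Klre1* was higher in CD8+ T cells, with 6 against 0, 19 against 1 and 25 against 0 molecules. Within the GABA-treated *muMt*-/- group, the stroma genes *Dcn* and *Col3a1* were lower in CD8+ T cells than in TAMs, by fitted values of -2.70 and -1.67. These calls held in 38 and 23 of 43 alternative settings.

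Genes whose pattern was most like that of *Pdcd1*, *Ctla4*, *Havcr2* or *Entpd1* were sought among the 1882 genes that averaged at least 5 normalized molecules in CD8+ T cells, by Pearson's r of log2 values over the 18 libraries, which share differences in depth. For *Pdcd1* they were *Ppp6r1* (r = 0.843), *Rgs16* (0.828) and *Tmem50a* (0.772), and for *Ctla4* they were *Fam107b* (0.850), *Klrd1* (0.829) and *Sdf4* (0.797). For *Havcr2* they were *Ly6e* (0.760), *Cd53* (0.714) and *Myh9* (0.698), and for *Entpd1* they were *Ppp3ca* (0.773), *Bri3bp* (0.760) and *Mmp14* (0.735). *Mmp14* averaged 5.07 in CD8+ T cell and 81.5 in TAM libraries, while *Klrd1* averaged 22.7 and 0.300. As the highest of 1882 coefficients, these values are a description and carry no test.

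In the RefSeq annotation of GRCm38.p6, *Pdcd1* lies on chromosome 1 from 94038305 to 94052553 on the minus strand and *Ctla4* on the same chromosome from 60909025 to 60915832 on the plus strand. *Havcr2* lies on chromosome 11 from 46454931 to 46481255 (plus), *Lag3* on chromosome 6 from 124904359 to 124912434 (minus), *Cd160* on chromosome 3 from 96798763 to 96829351 (minus), *Entpd1* on chromosome 19 from 40612366 to 40741602 (plus) and *Tox* on chromosome 4 from 6686353 to 6991557 (minus). *Tigit*, on chromosome 16 from 43626137 to 43665125 (minus), overlaps the end of *Zbtb20* on the plus strand in RefSeq, though not in GENCODE M21, where it starts at 43648867. *Zbtb20* had 13 molecules in CD8+ T cell and 39 in TAM libraries, and how reads in the overlap were assigned was not given in the sources used here.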

How the data were processed

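The authors mapped reads with STAR to mm10 with the UCSC refFlat annotation and deposited counts of distinct molecules per gene and library (whole numbers, not normalized). The 24781 genes included 9188 with no molecule and 0 spike-in genes, and 0 columns of values lacked a sample. Groups followed the labels' genotype and pellet, 6 libraries each. Replicate numbers were not treated as pairs between groups or cell types.

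Genes with a mean normalized number above 1 (DESeq2 size factors) were tested with edgeR 4.0.16 (quasi-likelihood, TMM, 1 coefficient per group, adjusted p threshold 0.05), separately in the 18 libraries of each cell type and over all 36. DESeq2 was version 1.42.0, limma 3.58.1 and R 4.3.3. Permutations and figures used scipy 1.17.1, matplotlib 3.10.9, pandas 2.3.3 and numpy 2.4.6 under Python 3.11.15. Depth and marker sums were compared with two-sided exact permutation tests (smallest p 0.0022), and correlations with 100000 permutations (1e+05). The procedure was tested on simulated data.

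The members and lists were chosen with earlier results of these data known. Named genes were the 8 members, listed genes with an adjusted p under 0.05 (at most the 4 largest differences per list and comparison), the 2 most abundant genes of each list in CD8+ T cells, and the 3 genes most like each member with a mean of at least 5. *Zbtb20*, *Vsir* and *Col1a2* were added after their values were seen, and a gene named between cell types in 1 mouse group is given in all where it passed. Alternatives were DESeq2's size factors, DESeq2's test, filterByExpr, no filter, a robust fit, only the groups compared, the replicate number as a block, total molecules or the macrophage marker sum as a covariate, the log2 scale for correlations, and leaving out each library. Leaving out the 3 WT CD8+ T cell libraries under 40000 molecules, and leaving out single libraries from marker sums, depth and ratios of molecules, were chosen after seeing the data.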

Additional observations from a re-analysis of the deposited data

Results flagged for a closer look

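In 39 groups of 6 libraries, each looked at for a highest or lowest library far from the nearest other one relative to the range of the group, 5 stood out. Chance flags about 1 in 20 groups. In CD8+ T cells of placebo-treated *muMt*-/- mice, replicate 1 had an *Entpd1* level of 47.5, where the next library had 19.1, and a macrophage marker sum of 414, where the next had 150. In CD8+ T cells of WT mice, replicate 5 had a macrophage marker sum of 115, where the next had 45.1. In TAMs, *Ctla4* reached 5.58 in placebo-treated *muMt*-/- replicate 4, where the next library had 0.922, and 1.33 in GABA-treated *muMt*-/- replicate 1, which held the single molecule of its group. A group with 1 molecule stands out whatever the gene, so the rate by chance does not hold for this last one, and it is a poor guide for the other *Ctla4* group, with 5 molecules. All values are normalized numbers of molecules. The part that the first of these libraries had in the *Entpd1* differences is given with those differences, by leaving it out.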

How the results depend on the processing

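Of 27 log2 differences of single members between mouse groups within a cell type, 17 kept their sign in every alternative and with every library left out, and 10 changed it at least once. Of 717 adjusted p-values under alternatives 0 were under 0.05, and the lowest were 0.146 in CD8+ T cells and 0.0535 in TAMs. Between cell types, 18 of 18 kept their sign. With filterByExpr, which tests fewer genes, 3 in place of 5 members passed in WT, 3 in placebo-treated and 3 in GABA-treated *muMt*-/- mice, and under the other alternatives 5, or 6 in WT mice where *Tox* was tested and passed (no filter, and only the groups compared). With the replicate number as a block, treated as if samples were paired, 0 members passed within a cell type and 5 between cell types in each group. Residuals of same-numbered libraries correlated at -0.180 to 0.281 in CD8+ T cells (5 of 18 pairs above 0.1, with all 3 of replicate 4), -0.117 to 0.0896 in TAMs (0 of 18) and -0.0250 to 0.206 between cell types (1 of 18). The number of all genes called moved more. In CD8+ T cells it was 0 in each of the 3 comparisons (without B cells, GABA against placebo, GABA against WT), and 72, 11 and 64 with no filter, 0, 6 and 0 with total molecules and 0, 5 and 4 with the macrophage marker sum as a covariate, 0, 2 and 1 with the block, and at most 1 in each under the others. In TAMs it was 194, 2 and 7, and 253, 60 and 14 with DESeq2, 295, 3 and 2 with filterByExpr, 343, 51 and 63 with no filter, 323, 2 and 4 in the groups compared alone, 230, 4 and 5 with the robust fit, 201, 4 and 6 with the block, and 11, 5 and 7 with total molecules as a covariate. Between cell types it was 1928, 1810 and 1869, and 1166, 1219 and 1209 with filterByExpr. The interactions, with 1 and 0 genes, gave 79 and 17 with no filter, 12 and 1 with the block, 13 and 0 in the groups compared alone, 9 and 0 with DESeq2, and 0 and 0 with DESeq2's size factors, filterByExpr or the robust fit. Without single libraries the CD8+ T cell counts were 0 to 13, 0 to 1 and 0 to 2, those in TAMs 67 to 338, 2 to 36 and 2 to 9, and those of the interactions 0 to 9 and 0 to 2. Without the 3 shallow WT libraries, an alternative chosen after seeing the data, the differences without B cells were 0.65 for *Havcr2*, 0.71 for *Ctla4* and 0.30 for *Entpd1*, and 0 members passed. On the log2 scale the correlations with the macrophage marker sum were 0.567 for *Entpd1* and -0.527 for *Ctla4* (permutation tests, adjusted p = 0.0343 for both), and that of *Havcr2* changed sign to 0.0189 (adjusted p = 0.94). Depth limits *Tigit*, *Tox* and *Lag3* most, at 2, 17 and 34 molecules over the 18 CD8+ T cell libraries.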
